A study of Capra hircus with 9 samples.

Results

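The 9 genes described here encode receptors through which autonomic nerves drive the salivary gland: the muscarinic receptors CHRM1 and CHRM3, the adrenergic receptors ADRB1, ADRA1A and ADRA1B, the vasoactive intestinal peptide (VIP) receptors VIPR1 and VIPR2, the substance P receptor TACR1 and the nucleotide receptor P2RY2. They were chosen by name, with earlier results of these data known. All 9 were found among the 21665 genes to which the transcript table was summed, as 25 transcripts, 9 of them newly assembled. RNA was sequenced from whole submandibular glands of healthy female Lubo goats aged 1, 12 and 24 months, with 3 goats and 3 libraries an age. No genotype or treatment separated the groups. All goats were reared alike, fasted, and put under anaesthesia with xylazine, itself an agonist at alpha-2 adrenergic receptors, before slaughter. Each library is 1 goat, so the spread within an age is between animals. Cell types were not separated, and no gene was manipulated.

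Salivation is started by nerves. Acetylcholine from parasympathetic endings acts on M3 and M1 receptors, which couple to Gq, phospholipase C and release of stored calcium, and calcium opens the chloride and potassium channels that draw water into saliva. Noradrenaline from sympathetic endings acts on beta receptors, which couple to Gs, cyclic AMP and secretion of stored protein, and on alpha-1 receptors, which use the Gq route. VIP and substance P are released with the classical transmitters, VIP acting mainly through cyclic AMP and substance P through calcium, and P2Y2 answers to nucleotides such as ATP and UTP released by cells.

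The libraries held totals of 1.15e+07 to 1.76e+07 expected counts at 1 month, 1.82e+07 to 2.11e+07 at 12 months and 2.20e+07 to 2.49e+07 at 24 months. Levels are given in CPM, counts divided by the size of the library and put on a common total of 1000000, with library sizes scaled by the trimmed mean of M values (TMM), on which scale 3 counts are worth from 0.145 to 0.190 CPM, and lower levels could not be told from 0. A CPM value is not divided by transcript length, so levels were compared between ages and not between receptors. The library labelled 1-month replicate 2 stood apart from the tissue named in its label. AQP5, the water channel of salivary acini, was at 0.493 CPM in it against 217 and 128 CPM in 1-month replicates 1 and 3. The epithelial transcription factor EHF was at 1.41 CPM in it against 296 and 214 CPM. The summed level of 15 thymus genes, among them RAG1, CD8B and CD4, was 12126 CPM in that library, 3496 and 1721 CPM in 1-month replicates 1 and 3, and from 10.9 to 27.9 CPM at 12 and 24 months. The sum of 15 genes expressed in salivary epithelium (EPCAM, CDH1, keratins, claudins, EHF and others) was 1506, 773 and 1105 CPM in 1-month replicates 1, 2 and 3, from 3590 to 3853 CPM at 12 months and from 3568 to 5252 CPM at 24 months. Some of these, such as KRT8 at 307 CPM in 1-month replicate 2, are made by epithelia in general. A summed list of 8 neutrophil and myeloid genes was at 773 CPM in 1-month replicate 3 and from 4.51 to 62.7 CPM in the other 8 libraries. The receptors tested are therefore compared with 1 month with and without 1-month replicate 2, and other named genes are given without it where the call changed or the fold moved by over 1.5 times. The receptors are also given per 100000 counts of the epithelial list. In whole glands, fewer cells of a type and less RNA per cell cannot be told apart. The part of the other cell types in the differences below was not tested.

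**Figure D1:**
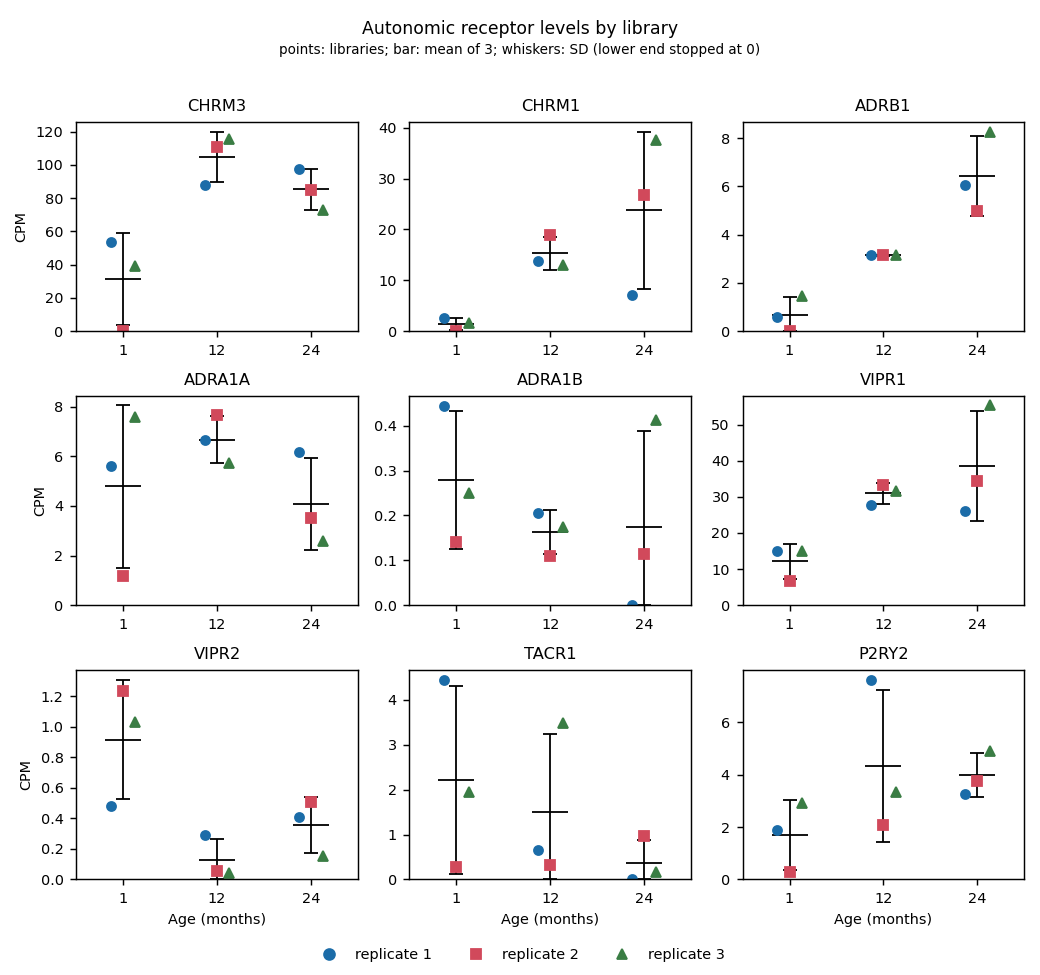
Levels of the 9 receptors in CPM (vertical axes, linear, from 0) against age in months, with 1 point a library, the mean as a bar and the SD as whiskers. CHRM3, CHRM1, ADRB1 and VIPR1 lie higher in all 12-month and 24-month libraries than in all 1-month libraries, and 1-month replicate 2 is the lowest 1-month library for every receptor but VIPR2.

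Of the 2 muscarinic receptors, CHRM1 rose at both older ages and had the largest fitted rise of the 8 receptors tested, while CHRM3 passed only at 12 months and only without 1-month replicate 2. CHRM1, the M1 receptor, was at 2.55, 0.0705 and 1.53 CPM in 1-month replicates 1, 2 and 3. At 12 months it was at 13.9, 18.9 and 13.1 CPM, and at 24 months at 7.10, 26.7 and 37.5 CPM. Neither older age overlapped 1 month, and the 24-month libraries were spread over a wider range than the 12-month ones, with 24-month replicate 1 below all 3 of the 12-month libraries. In edgeR's quasi-likelihood test with Benjamini-Hochberg adjustment over all genes, CHRM1 was 11.8-fold higher at 12 than at 1 month (log2 fold change 3.55, SE 0.97, adjusted p = 0.0466) and 19.2-fold higher at 24 than at 1 month (4.26, SE 1.09, adjusted p = 0.0324). With 1-month replicate 2 left out it was 7.46-fold higher at 12 months (2.90, SE 0.34, adjusted p = 0.00207) and 12.4-fold higher at 24 months (3.64, SE 0.73, adjusted p = 0.00832). The 12-month call rested on few libraries: leaving out any single library other than 1-month replicate 2 took the adjusted p above 0.05, up to 0.145. Calls over all genes fell too, to 0, 75 and 125 without 12-month replicates 1, 2 and 3, against 2719 over all libraries. The log2 fold change of CHRM1 stayed between 2.90 and 4.30 whichever library was left out. Its adjusted p at 12 months was also just above 0.05 with DESeq2's size factors (0.0503) and with upper-quartile normalization (0.0571). The 24-month call was lost without 1-month replicate 3, 24-month replicate 2 or 24-month replicate 3, with adjusted p up to 0.119. In those fits 1594, 555 and 309 of all genes passed, against 2637 over all libraries.

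CHRM3, the M3 receptor that carries most of the cholinergic secretory response in rodent glands, was at 53.7, 0.211 and 39.4 CPM at 1 month. The value of 0.211 CPM in 1-month replicate 2 stands for 4.04 expected counts. At 12 months CHRM3 was at 87.7, 111 and 116 CPM, and at 24 months at 97.4, 85.1 and 73.1 CPM. All 6 older libraries lay above all 3 of the 1-month libraries. With that library included the spread at 1 month was 27.7 CPM around a mean of 31.1 CPM (SD, n = 3), and the fitted differences did not pass (3.59-fold, log2 fold change 1.84, SE 1.29, adjusted p = 0.319 at 12 months, and 3.03-fold, 1.60, SE 1.19, adjusted p = 0.377 at 24 months). Without it the mean at 1 month was 46.6 ± 10.1 CPM (SD, n = 2), and CHRM3 rose 2.26-fold by 12 months (1.17, SE 0.20, adjusted p = 0.00632), while the 24-month difference of 1.97-fold missed the threshold (0.98, SE 0.32, adjusted p = 0.0517).

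The 3 adrenergic receptors differed among themselves. ADRB1, the beta-1 receptor of the protein-secreting route, was at 0.592, 0 and 1.45 CPM at 1 month, where a count of 0 in 1-month replicate 2 allows up to 3 counts. It was at 3.14, 3.14 and 3.15 CPM at 12 months and at 6.05, 4.98 and 8.26 CPM at 24 months. The groups did not overlap for any pair of ages, in the order 1, 12 and 24 months. The differences from 1 month did not pass over 3 against 3 libraries (4.99-fold at 12 months, log2 fold change 2.32, SE 1.08, adjusted p = 0.161, and 10.6-fold at 24 months, 3.40, SE 1.08, adjusted p = 0.0630). On the same libraries the 24-month difference passed by DESeq2's Wald test (adjusted p = 0.00375) and by edgeR's exact test (adjusted p = 0.00993). It also passed in 1 edgeR fit of all 9 libraries (adjusted p = 0.0294). These 3 passed 4113, 3816 and 4400 of all genes, against 2637 in the pairwise quasi-likelihood test. That test did not pass ADRB1 at 24 months with DESeq2's size factors (adjusted p = 0.0693), upper-quartile normalization (0.0823), no filter (0.0619) or epithelial scaling (0.217). Without 1-month replicate 2 the 12-month and 24-month differences both passed, at 3.11-fold (1.64, SE 0.52, adjusted p = 0.0459) and 6.80-fold (2.77, SE 0.62, adjusted p = 0.0127).

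ADRA1A, the alpha-1A receptor, was at 5.62, 1.16 and 7.57 CPM at 1 month, at 6.64, 7.65 and 5.73 CPM at 12 months and at 6.17, 3.51 and 2.58 CPM at 24 months. The ages overlapped throughout. Its log2 fold change was 0.57 (SE 0.63, adjusted p = 0.524) at 12 months and -0.10 (SE 0.71, adjusted p = 0.937) at 24 months, and without 1-month replicate 2 it was 0.02 (SE 0.27) and -0.58 (SE 0.52). ADRA1B, the alpha-1B receptor, never had more than 8 counts in a library. It lay between 0.141 and 0.444 CPM at 1 month, between 0.110 and 0.206 CPM at 12 months and between 0 and 0.413 CPM at 24 months, and it did not reach the filter on low counts in any comparison. At this depth no difference in the CPM of ADRA1B between ages was detectable.

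Of the 2 VIP receptors, VIPR1 rose and VIPR2 did not pass in edgeR's pairwise quasi-likelihood test with TMM scaling. VIPR1 was at 14.9, 6.59 and 14.9 CPM at 1 month, at 27.8, 33.3 and 31.7 CPM at 12 months and at 25.9, 34.3 and 55.4 CPM at 24 months, with no overlap between 1 month and either older age. It rose 2.68-fold by 12 months (log2 fold change 1.42, SE 0.36, adjusted p = 0.0379) and was 3.49-fold higher at 24 than at 1 month (1.80, SE 0.48, adjusted p = 0.0361). With 1-month replicate 2 left out the folds were 2.08 (1.06, SE 0.15, adjusted p = 0.00356) and 2.78 (1.47, SE 0.40, adjusted p = 0.0256). Leaving out any other single library lost the 12-month call, with adjusted p up to 0.134, and any other than 24-month replicate 1 lost the 24-month call, also with adjusted p up to 0.134. In the fits that lost the call, from 0 to 2045 of all genes passed at 12 months and from 309 to 1919 at 24 months. Over all libraries 2719 and 2637 passed. Upper-quartile normalization gave VIPR1 an adjusted p of 0.0578 and 0.0530.

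VIPR2 was scarce at every age. It was at 0.481, 1.23 and 1.03 CPM at 1 month, at 0.289, 0.0548 and 0.0439 CPM at 12 months and at 0.407, 0.509 and 0.155 CPM at 24 months. The 12-month libraries, of which 1 exceeded 3 counts, lay below all 1-month libraries, and 1-month replicate 2 held the highest value of the 9. The log2 fold change of -2.75 (SE 0.82) at 12 months did not pass (adjusted p = 0.0594), nor did -1.18 (SE 0.77, adjusted p = 0.313) at 24 months. The 12-month difference passed by DESeq2's Wald test (adjusted p = 0.0344), by edgeR's exact test (adjusted p = 0.0135) and in 1 edgeR fit of all 9 libraries (adjusted p = 0.0459). These 3 passed 4799, 4162 and 3588 of all genes, against 2719 in the pairwise quasi-likelihood test. The pairwise test did not pass VIPR2 at 12 months with DESeq2's size factors (adjusted p = 0.0577), upper-quartile normalization (0.0605) or no filter (0.0909). It passed VIPR2 there with epithelial scaling (adjusted p = 0.00577), where 71.5% of all genes passed as lower. With 1-month replicate 2 left out the log2 fold changes of VIPR2 were -2.50 (SE 0.90, adjusted p = 0.0665) and -0.89 (SE 0.89, adjusted p = 0.483). VIPR2 did not reach the filter between 24 and 12 months. The count at 1 month rests in part on a new transcript that the table writes as Vipr2, which was summed with VIPR2 here.

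TACR1, the receptor for substance P, was at 4.44, 0.282 and 1.95 CPM at 1 month, at 0.660, 0.330 and 3.50 CPM at 12 months and at 0, 0.961 and 0.155 CPM at 24 months. The 3 ages overlapped, and neither -0.48 (SE 1.15, adjusted p = 0.774) at 12 months nor -2.36 (SE 1.36, adjusted p = 0.256) at 24 months passed. Once 1-month replicate 2 was left out the 24-month libraries lay below the 1-month ones, and the log2 fold changes of -1.10 (SE 0.98, adjusted p = 0.402) and -2.94 (SE 1.19, adjusted p = 0.0955) did not pass. P2RY2, the nucleotide receptor, was at 1.89, 0.282 and 2.92 CPM at 1 month, at 7.62, 2.06 and 3.35 CPM at 12 months and at 3.28, 3.76 and 4.91 CPM at 24 months. Its 24-month libraries lay above the 1-month ones, whereas the 12-month ones overlapped them. The log2 fold changes of 1.45 (SE 0.86, adjusted p = 0.248) and 1.39 (SE 0.79, adjusted p = 0.253) did not pass, nor did 0.86 (SE 0.62, adjusted p = 0.304) and 0.84 (SE 0.55, adjusted p = 0.281) without 1-month replicate 2.

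**Figure D2:**
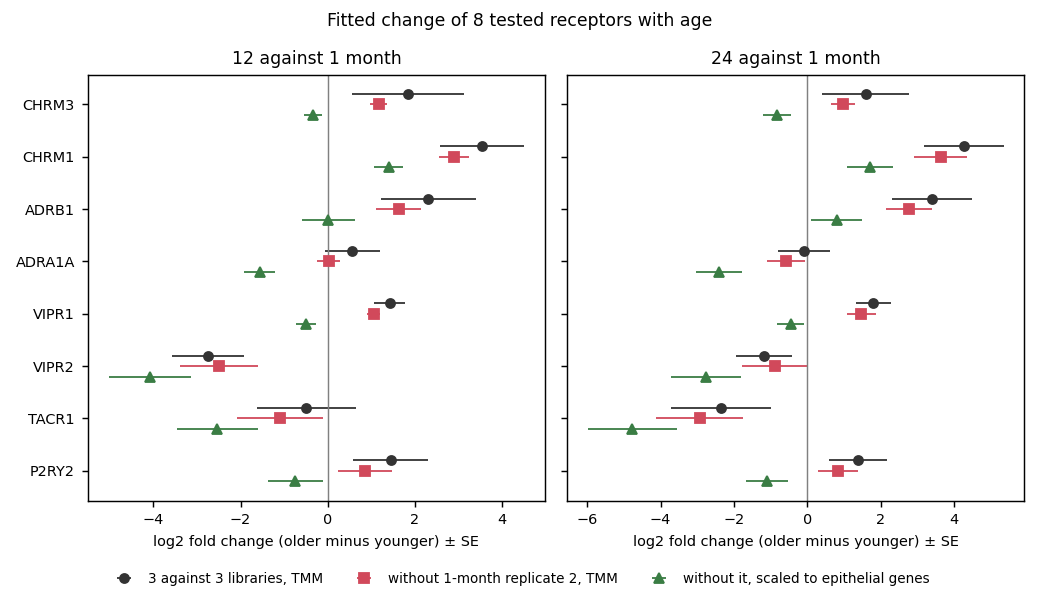
Fitted log2 fold change with its SE (horizontal axis, older minus younger) of the 8 receptors tested, at 12 (left) and 24 months (right) against 1 month, over 3 against 3 libraries (circles), without 1-month replicate 2 (squares) and without it and scaled to the epithelial list (triangles). CHRM1 lies to the right of 0 in all 3 fits at both ages, and CHRM3 and VIPR1 cross to the left of 0 when scaled to the epithelial list.

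Counted together, 2 of the 8 receptors tested passed at 12 against 1 month, both higher (CHRM1 and VIPR1), where 18.3% of all 14884 genes tested passed and 6.49% were higher. The same count of 2 of 8 was found at 24 against 1 month (CHRM1 and VIPR1), where 17.6% of 14954 genes passed and 7.08% were higher. Groups did not overlap for 5 of 8 receptors at 12 months, 4 of them higher, beside 53.6% of all genes, of which 26.6% were higher. They did not overlap for 5 of 8 at 24 months, all higher, beside 43.7% of all genes and 20.2% higher. Without 1-month replicate 2, 4 of 8 receptors passed at 12 months (CHRM1, CHRM3, ADRB1 and VIPR1, all higher), where 43.3% of genes passed and 21.1% were higher. At 24 months 3 of 8 passed (CHRM1, ADRB1 and VIPR1), where 27.9% of genes passed and 13.8% were higher. Both comparisons share the 1-month libraries. Of the genes that passed, 35.5% and 40.1% were higher in the older glands with TMM scaling of all libraries, against 0.737% and 0.833% when libraries were scaled to the epithelial list. The median log2 fold change of the 8 receptors was 1.44 at 12 months and 1.49 at 24 months, beside -0.02 and -0.01 over all genes tested.

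CHRM1 was also higher in the older glands relative to epithelial transcripts. Per 100000 counts of the epithelial list, CHRM1 was at 169, 9.13 and 139 at 1 month, at 360, 507 and 364 at 12 months and at 199, 607 and 714 at 24 months. All 6 older libraries lay above all 1-month ones on this scale. With 1-month replicate 2 left out and libraries scaled to that list, CHRM1 was 2.65-fold higher at 12 months (log2 fold change 1.40, SE 0.34, adjusted p = 0.00665) and 3.28-fold higher at 24 months (1.71, SE 0.63, adjusted p = 0.0401). On that scale the median gene lay at -1.56 and -1.80, and only 1.11% and 0.800% of genes passed as higher. With 1-month replicate 2 kept, the 12-month difference of CHRM1 did not pass on this scale (1.94, SE 0.85, adjusted p = 0.0728), and the 24-month one did (2.25, SE 0.87, adjusted p = 0.0299).

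CHRM3, VIPR1 and ADRB1, which were higher in CPM, did not pass as higher per epithelial count. CHRM3 stood at 3566, 27.3 and 3564 per 100000 epithelial counts at 1 month, at 2276, 2971 and 3224 at 12 months and at 2731, 1934 and 1392 at 24 months. Scaled to the list without 1-month replicate 2, its log2 fold change was -0.34 (SE 0.21, adjusted p = 0.175) at 12 months and -0.82 (SE 0.39, adjusted p = 0.0888) at 24 months. VIPR1 was at 992, 852 and 1350 at 1 month, from 722 to 893 at 12 months and from 727 to 1055 at 24 months. Its log2 fold changes on this scale were -0.49 (SE 0.24, adjusted p = 0.0902) and -0.45 (SE 0.37, adjusted p = 0.299). ADRB1 was at 39.3, 0 and 131 at 1 month, from 81.4 to 87.7 at 12 months and from 113 to 170 at 24 months, with log2 fold changes of 0.02 (SE 0.61, adjusted p = 0.979) and 0.81 (SE 0.70, adjusted p = 0.319).

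ADRA1A, VIPR2 and TACR1 passed as lower per epithelial count at both older ages when 1-month replicate 2 was left out. ADRA1A held 373, 150 and 685 counts per 100000 epithelial counts at 1 month, from 160 to 205 at 12 months and from 49.1 to 173 at 24 months. Scaled to the list without 1-month replicate 2, it was 2.94-fold lower at 12 months (adjusted p = 0.00487) and 5.27-fold lower at 24 months (adjusted p = 0.0114). In the same fits TACR1 was 5.78-fold lower (adjusted p = 0.0377) and 27.2-fold lower (adjusted p = 0.0102). VIPR2 was 17.0-fold lower (adjusted p = 0.00541) and 6.78-fold lower (adjusted p = 0.0306). In this scaling 77.9% and 68.3% of all genes passed as lower, so that 3 of 8 receptors is no more than the background. When 1-month replicate 2 was kept, ADRA1A and TACR1 did not pass at 12 months (adjusted p = 0.104 and 0.124) and were 4.01-fold and 19.6-fold lower at 24 months (adjusted p = 0.0310 and 0.00537), and VIPR2 was 25.7-fold and 10.3-fold lower (adjusted p = 0.00577 and 0.00695). ADRA1B, with no more than 8 counts, was at 29.5, 18.3 and 22.7 per 100000 epithelial counts at 1 month. It was from 2.95 to 5.35 at 12 months and from 0 to 7.86 at 24 months. Neither older age overlapped 1 month on this scale, while both overlapped it in CPM. The share of all genes without overlap on this scale was not counted. P2RY2 did not pass (adjusted p = 0.303 and 0.114).

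**Figure D3:**
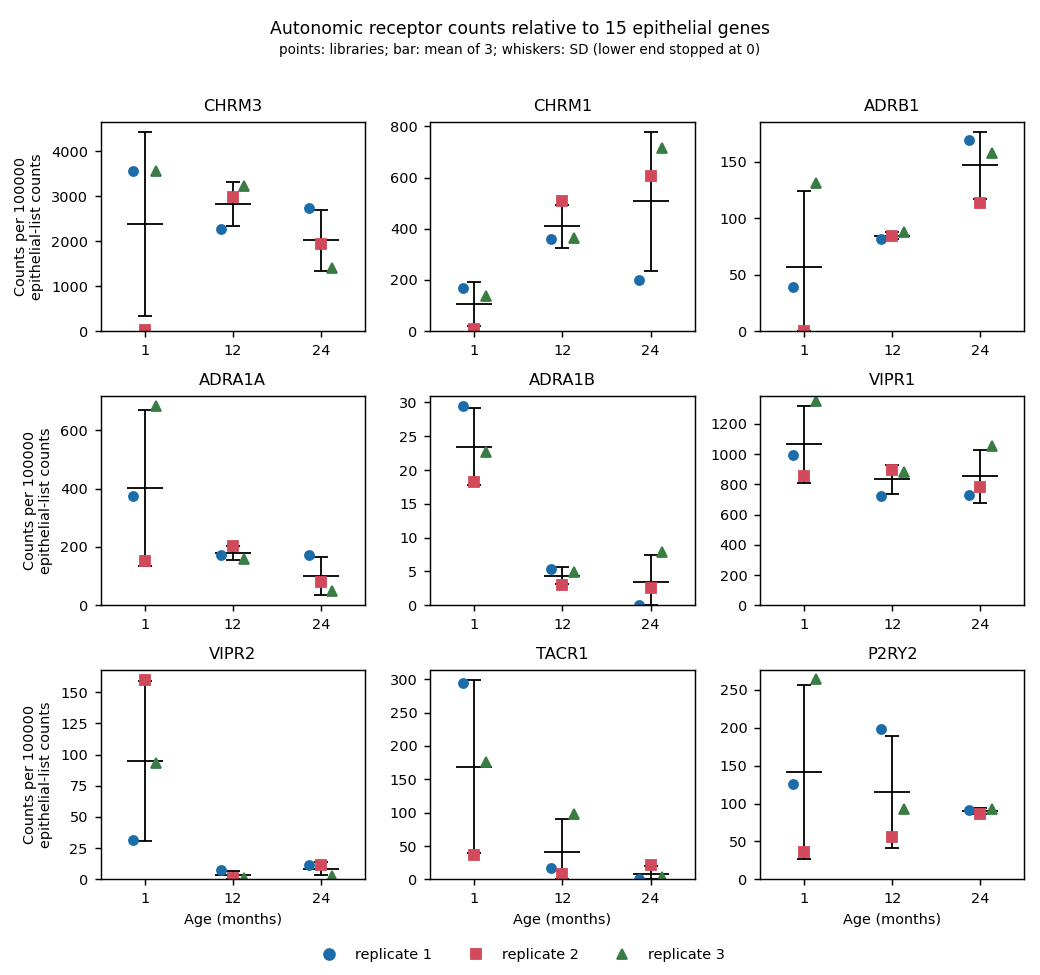
Counts of each receptor per 100000 counts of the 15 epithelial genes (vertical axes, linear, from 0) against age in months, with 1 point a library, the mean as a bar and the SD as whiskers. CHRM1 is higher in all 6 older libraries than in all 1-month libraries, while CHRM3 in 1-month replicates 1 and 3 (3566 and 3564) lies above all older libraries.

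Between 24 and 12 months none of the 7 receptors tested passed, and neither did any of the 14289 genes tested (edgeR quasi-likelihood test, with 1560 genes at an unadjusted p under 0.05). The exact test of edgeR and the Wald test of DESeq2 each passed 24 genes and no receptor. ADRB1 was the only receptor at an unadjusted p under 0.05 and the only one of the 7 whose groups did not overlap, beside 15.5% of all genes. It was 2.09-fold higher at 24 than at 12 months (log2 fold change 1.07, SE 0.34, unadjusted p = 0.0112, adjusted p = 0.429), and an exact permutation test of its CPM gave p = 0.1, the smallest that 3 against 3 libraries allow. CHRM1 differed by 0.68 (SE 0.50), CHRM3 by -0.26 (SE 0.23), ADRA1A by -0.67 (SE 0.39), VIPR1 by 0.36 (SE 0.30), TACR1 by -1.90 (SE 1.21) and P2RY2 by -0.08 (SE 0.49). The library 24-month replicate 1 decided this count: without it 4614 of 14585 genes passed, and with them ADRB1 and CHRM1 as higher and ADRA1A as lower at 24 months.

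Ratios of paired receptors within a library do not depend on how libraries are scaled. The log2 ratio of CHRM3 to CHRM1 counts was 3.44 ± 1.87 at 1 month, 2.78 ± 0.32 at 12 months and 2.14 ± 1.46 at 24 months (SD, n = 3 each), and the ages overlapped. An exact permutation test (two-sided) gave p = 0.6 for 12 against 1 month, 0.3 for 24 against 1 month and 0.5 for 24 against 12 months, where 3 against 3 libraries cannot go below 0.1. Without 1-month replicate 2, in which both genes were near the limit of counting, the ratio at 1 month was 4.52 ± 0.20 (SD, n = 2), above all older libraries. The differences of -1.73 (exact p = 0.1) and -2.38 (exact p = 0.2) cannot reach 0.05 in 2 against 3 libraries, whose smallest p is 0.1. In 24-month replicates 2 and 3 the ratio was lower than in every 12-month library, and in 24-month replicate 1 higher.

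The log2 ratio of VIPR1 to VIPR2 counts was 3.69 ± 1.24 at 1 month, 7.98 ± 1.32 at 12 months and 6.72 ± 1.33 at 24 months (SD, n = 3 each). Both older ages lay above 1 month without overlap (differences 4.28 and 3.03, exact p = 0.1 each, the smallest possible), and this held without 1-month replicate 2 (differences 3.63 and 2.38). The denominator is low, since VIPR2 had at most 23.6 counts in a library. The log2 ratio of ADRA1A to ADRA1B was 3.72 ± 0.97, 5.16 ± 0.56 and 5.03 ± 2.65 at 1, 12 and 24 months, with ADRA1B near the limit of counting. It did not overlap between 12 and 1 month (difference 1.44, exact p = 0.1).

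**Figure D4:**
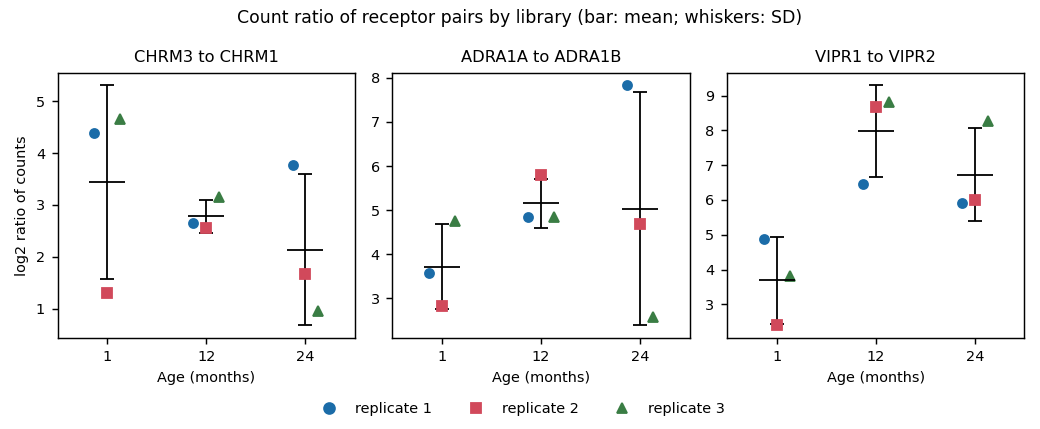
Log2 ratio of the counts of 3 receptor pairs (vertical axes, not from 0) against age in months, with 1 point a library, the mean as a bar and the SD as whiskers. VIPR1 to VIPR2 is higher in all older libraries than in all 1-month libraries, and CHRM3 to CHRM1 is at its lowest in 24-month replicate 3.

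The CHRM3 count came from a RefSeq transcript (XM_018042600.1) and a newly assembled one. The RefSeq transcript held 15.2% and 17.8% of the CHRM3 count in 1-month replicates 1 and 3, 31.8%, 28.2% and 30.0% in the 12-month libraries and 23.9%, 42.7% and 49.5% in the 24-month libraries. In 1-month replicate 2 it held all of the 4.04 counts. Its share was thus higher in every older library than in 1-month replicates 1 and 3. When transcripts were tested singly, 0 of the 14 receptor transcripts tested passed at 12 against 1 month and 0 of 10 at 24 against 1 month (edgeR quasi-likelihood test, 4 and 5 at an unadjusted p under 0.05). Few transcripts of any gene passed in these fits, 902 of 30272 and 453 of 30205. Of all transcripts, 6831 and 6243 were at an unadjusted p under 0.05.

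In CPM the signalling genes behind the receptors changed in both directions. Of 66 genes in 5 pathway lists (other autonomic receptors, Gq and calcium, Gs and cyclic AMP, receptor regulators, fluid secretion), 61 were tested at 12 against 1 month and 15 passed, 9 higher and 6 lower, beside 18.3% of all genes. At 24 against 1 month 14 of 62 passed, 7 higher and 7 lower, beside 17.6% of all genes. Without 1-month replicate 2, 36 of 61 and 24 of 62 passed, beside 43.3% and 27.9% of all genes. Leaving out any 12-month library took the 12-month count to 0, and leaving out 24-month replicate 2 or 3 took the 24-month count to 1. Over all genes at most 125 and 555 passed in those fits, against 2719 and 2637 over all libraries. The median log2 fold change of the 5 lists together was 0.16 at 12 months and 0.40 at 24 months. Between 24 and 12 months 0 of 60 passed (12 at an unadjusted p under 0.05).

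Among 14 other autonomic receptors, 11 were tested and 1 passed at each age over all libraries, beside 18.3% and 17.6% of all genes. This was P2RX4, an ATP-gated cation channel. It was at 44.1, 13.8 and 43.1 CPM at 1 month, from 99.1 to 111 CPM at 12 months and from 98.8 to 125 CPM at 24 months, and it rose 3.34-fold (adjusted p = 0.0377) and 3.63-fold (adjusted p = 0.0342). ADRB3, the beta-3 receptor, was at 3.00, 0.0350 and 4.12 CPM at 1 month and between 4.83 and 13.3 CPM in the older libraries, with log2 fold changes of 1.19 (adjusted p = 0.417) and 2.22 (adjusted p = 0.167). Without 1-month replicate 2 they were 0.53 (adjusted p = 0.197) and 1.59 (adjusted p = 0.0451), so that ADRB3 passed at 24 months. ADRA2A, the alpha-2A receptor, passed at 12 months in that fit (2.97-fold lower, adjusted p = 0.0276), from 5.81 and 4.20 CPM in 1-month replicates 1 and 3 to between 1.09 and 2.02 CPM at 12 months. The PACAP receptor ADCYAP1R1 lay between 2.44 and 8.44 CPM in all 9 libraries. CHRM5 was at 0 in 8 libraries, CHRM2 never exceeded 0.524 CPM, and CHRM4 was at 8.52 CPM in 1-month replicate 2 and at most 1.39 CPM elsewhere. These last 3 were not tested, as they did not reach the filter on low counts.

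In the Gq and calcium list, 5 of 14 genes tested passed at 12 months and 4 of 14 at 24 months, beside 18.3% and 17.6% of all genes. GNA11, a Gq-class alpha subunit, rose 2.26-fold (adjusted p = 0.0250) and 3.22-fold (adjusted p = 0.0196), and the phospholipase PLCB3 rose from at most 27.6 CPM at 1 month to between 44.1 and 48.6 CPM at 12 months (adjusted p = 0.0314) and was 2.89-fold higher at 24 months (adjusted p = 0.0366). The store calcium sensor STIM2 rose 2.02-fold by 12 months (adjusted p = 0.0282). PLCB2, a phospholipase known from blood cells, was 10.2-fold lower at 12 months (adjusted p = 0.0116) and 5.62-fold lower at 24 months (adjusted p = 0.0215). It was highest in 1-month replicate 2, at 36.1 CPM, as was the summed level of the thymus genes. The IP3 receptor ITPR2 fell 2.25-fold (adjusted p = 0.0454) and 3.01-fold (adjusted p = 0.0352), from 523, 474 and 318 CPM at 1 month to between 115 and 197 CPM in the older libraries. PLCB4, the most abundant phospholipase of the list, was at 224, 5.39 and 176 CPM at 1 month and between 314 and 587 CPM later, and its differences did not pass (adjusted p = 0.205 and 0.230). It passed without 1-month replicate 2, at 2.52-fold (adjusted p = 0.00306) and 2.39-fold (adjusted p = 0.0376). STIM1 was at 321 CPM in 1-month replicate 2 and between 76.0 and 207 CPM in the other libraries. It did not pass with that library (adjusted p = 0.368 and 0.934) or without it (adjusted p = 0.238 and 0.106).

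In the Gs and cyclic AMP list, 5 of 16 genes passed at 12 months and 4 of 17 at 24 months, beside the same 18.3% and 17.6% of all genes. The adenylyl cyclase ADCY9 had the largest fitted rise among the genes of the 5 lists that passed, going from 66.1, 9.93 and 50.2 CPM at 1 month to 238, 276 and 260 CPM at 12 months and 312, 288 and 606 CPM at 24 months. It rose 6.50-fold (log2 fold change 2.70, SE 0.64, adjusted p = 0.0327) and 10.5-fold (3.40, SE 0.73, adjusted p = 0.0186), and without 1-month replicate 2 the folds were 4.45 (adjusted p = 0.000701) and 7.40 (adjusted p = 0.00296). ADCY6 rose 3.56-fold (adjusted p = 0.0450) and 4.99-fold (adjusted p = 0.0260), from 50.9, 12.5 and 42.9 CPM at 1 month to at least 113 CPM in every older library. ADCY7, a cyclase known from blood cells, was 5.24-fold lower (adjusted p = 0.0105) and 4.71-fold lower (adjusted p = 0.0126). The kinase subunit PRKAR2B rose 2.72-fold (adjusted p = 0.0177) and the cyclic AMP phosphodiesterase PDE4D 3.09-fold (adjusted p = 0.0224) by 12 months, and PDE4B was 2.60-fold lower at 24 months (adjusted p = 0.0346). GNAS, the Gs alpha subunit, was between 161 and 293 CPM at 1 month and between 284 and 494 CPM in the older libraries and did not pass (adjusted p = 0.0754 and 0.341). Without 1-month replicate 2, GNAS passed at 12 months (1.63-fold higher, adjusted p = 0.0182), as did PDE4B (2.15-fold lower, adjusted p = 0.0215). PRKAR1A did not pass with 1-month replicate 2, in which it was highest at 327 CPM, or without it (adjusted p = 0.983 and 0.475).

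The receptor regulators, which switch off and internalise active receptors, were lower in the older glands where they passed over all libraries. GRK3, GRK6 and ARRB2 were the 3 of 9 that passed at each age, where 11.8% and 10.6% of all genes passed as lower. Without 1-month replicate 2, 6 of 9 passed at 12 months, 5 lower and 1 higher, beside 43.3% of all genes. At 24 months 3 of 9 passed without that library, all lower, beside 27.9% of all genes. GRK3, a receptor kinase, was at 151, 189 and 149 CPM at 1 month and between 13.8 and 26.4 CPM in the older libraries, 6.39-fold lower at 12 months (log2 fold change -2.68, SE 0.27, adjusted p = 0.00638) and 7.52-fold lower at 24 months (-2.91, SE 0.41, adjusted p = 0.00581). It was 6.06-fold and 6.90-fold lower without 1-month replicate 2 (adjusted p = 0.000250 and 0.0010). The kinase GRK6 was 7.53-fold and 5.66-fold lower (adjusted p = 0.0185 and 0.0217), and the arrestin ARRB2 10.4-fold and 6.03-fold lower (adjusted p = 0.0214 and 0.0407). Both were highest in 1-month replicate 2, at 128 and 81.9 CPM against 36.1 and 45.1 CPM and 15.2 and 26.5 CPM in 1-month replicates 1 and 3. Without that library both still passed, GRK6 at 4.45-fold and 3.26-fold lower (adjusted p = 0.000577 and 0.00654) and ARRB2 at 5.32-fold and 3.02-fold lower (adjusted p = 0.00218 and 0.0316). ARRB1, the other non-visual arrestin, was between 123 and 200 CPM in all 9 libraries. GRK2, the kinase first described for beta receptors, was at 416 CPM in 1-month replicate 2 and did not pass (adjusted p = 0.0528 and 0.0680). Leaving that library out, GRK2 passed at 12 months (2.46-fold lower, adjusted p = 0.00542) and not at 24 months (2.02-fold lower, adjusted p = 0.0581).

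**Figure D5:**
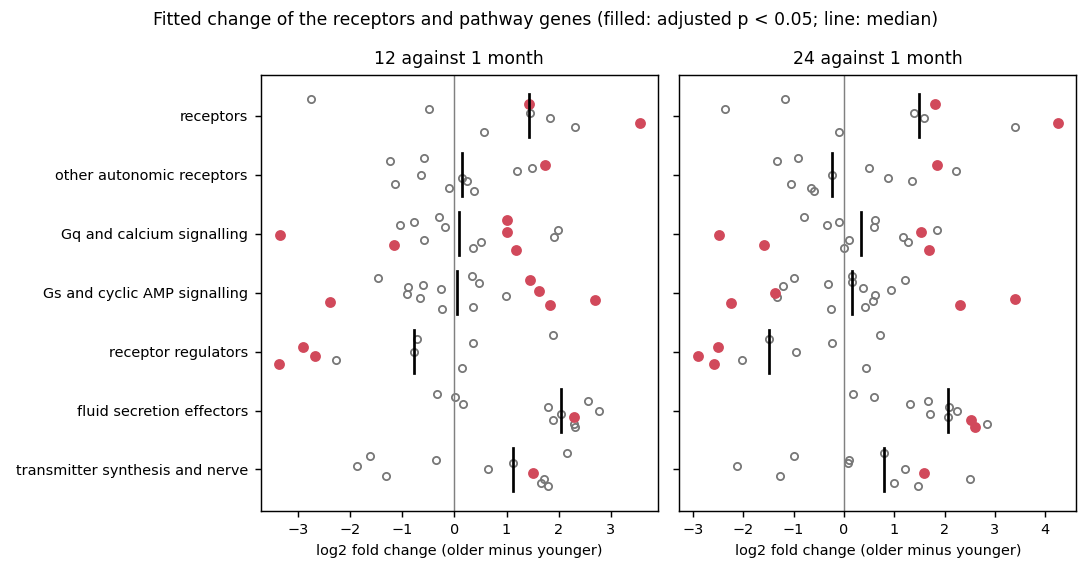
Fitted log2 fold change (horizontal axis, older minus younger) of each tested gene of the receptors, the 5 pathway lists and the nerve list, at 12 (left) and 24 months (right) against 1 month over 3 against 3 libraries, with genes at an adjusted p under 0.05 filled and the median of each list as a line. All regulators that passed lie to the left of 0 and all fluid secretion genes that passed lie to the right.

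The 11 fluid secretion effectors had the highest medians of the 5 lists, 2.05 at 12 months and 2.07 at 24 months. Only ATP1B1, a sodium pump subunit, passed at 12 months (4.93-fold, adjusted p = 0.0450), and the calcium-activated chloride channel ANO1 (6.08-fold, adjusted p = 0.0418) was among the 2 that passed at 24 months. All were higher, where 6.49% and 7.08% of all genes passed as higher. The sodium-potassium-chloride cotransporter SLC12A2, which loads acinar cells with chloride, was at 961, 44.4 and 629 CPM at 1 month, from 2523 to 3519 CPM at 12 months and from 1330 to 2033 CPM at 24 months, and did not pass (adjusted p = 0.102 and 0.226). Without 1-month replicate 2, 9 of 11 effectors passed at 12 months and 7 of 11 at 24 months, all higher, where 21.1% and 13.8% of all genes passed as higher. In those fits ANO1 was 3.33-fold and 4.18-fold higher (adjusted p = 0.00146 and 0.00349) and ATP1B1 3.46-fold and 3.06-fold higher (adjusted p = 0.00414 and 0.0140), while SLC12A2 passed at 12 months (3.84-fold, adjusted p = 0.00350) and not at 24 months (2.15-fold, adjusted p = 0.0613). The epithelial list had medians of 1.93 and 2.34 in the same comparisons, close to those of the effectors. Scaled to the epithelial list without 1-month replicate 2, the medians of the effectors were -0.11 and -0.37. None passed as higher, where 1.11% and 0.800% of all genes did. Of the 61 and 62 pathway genes, ADCY9 alone passed as higher on that scale, at 12 months (log2 fold change 0.64, adjusted p = 0.0176), while at 24 months it was at 1.00 (adjusted p = 0.0508). GRK3, GRK6 and ARRB2 passed as lower on both scales at both ages. On the epithelial scale, however, 77.9% and 68.3% of all genes passed as lower, as did 8 of the 9 regulators at each age.

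The list of genes for transmitters and nerves held both scarce and abundant transcripts. The cholinergic genes CHAT, SLC5A7 and SLC18A3 did not exceed 0.524 CPM in any library, and NPY did not exceed 0.0838 CPM. Of the 19 genes listed, 11 were tested and 1 passed at each age, beside 18.3% and 17.6% of all genes. This was NOS1, neuronal nitric oxide synthase, at 97.0, 73.7 and 54.2 CPM at 1 month and between 188 and 244 CPM in the older libraries, which rose 2.85-fold (adjusted p = 0.0217) and 3.02-fold (adjusted p = 0.0304). ACHE, which breaks down acetylcholine, was at 38.6, 1.16 and 25.4 CPM at 1 month and between 43.3 and 89.3 CPM later and did not pass (adjusted p = 0.217 and 0.292). It passed at 12 months without 1-month replicate 2 (2.24-fold, adjusted p = 0.0319) and not at 24 months (1.83-fold, adjusted p = 0.109). RET, a receptor for neurotrophic factors of the GDNF family, was at 11.5, 36.6 and 8.10 CPM at 1 month and at most 6.81 CPM later (adjusted p = 0.0870 and 0.0585, and 0.0697 and 0.0856 without 1-month replicate 2).

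The genes most like each receptor across the 9 libraries were found by Pearson's r of log2(CPM + 1) among 13649 genes. CHRM1 was most like FAM178B (r = 0.991), for which r was 0.983 over the 8 libraries without 1-month replicate 2. For CHRM3 the closest were RBFOX2 and ETV1 (r = 0.997 each), with 0.962 and 0.966 over 8 libraries. ADRB1 was most like LSS and UAP1L1 (r = 0.987 and 0.986), VIPR1 most like PLXNA2 and SHROOM2 (r = 0.994 and 0.992), and ADRA1A most like UGP2 and AK3 (r = 0.991 and 0.990). VIPR2 was most like TRIM25 and EXOC3L4 (r = 0.964 each), TACR1 most like ADAMTS19 and EDN3 (r = 0.921 and 0.903) and P2RY2 most like GLIS3 and DKK3 (r = 0.959 and 0.947). Over the 8 libraries these named genes kept r of at least 0.874, but a different gene was closest to each receptor. That gene had r over all 9 libraries of 0.663 for CHRM3, 0.0571 for TACR1 and 0.189 for P2RY2, and at least 0.942 for the other receptors. Among the receptors themselves the closest pair was CHRM1 and VIPR1 (r = 0.975 over 9 libraries and 0.964 over 8). Leaving out 1-month replicate 2 turned r of CHRM3 and ADRA1A from 0.751 to -0.0404. These values describe 9 points that share the step between 1 month and the later ages. They also share 1-month replicate 2, which was low in AQP5 and EHF and high in thymus genes.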

How the data were processed

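RNA was sequenced from 9 goat submandibular glands, 3 at each of 3 ages. The authors removed ribosomal RNA reads with Bowtie2 2.2.8, aligned the rest with TopHat2 2.1.1, assembled transcripts with Cufflinks and deposited expected counts per transcript from RSEM, not normalized for depth or length. The genome build is not given in the sources used here, so no coordinates are given. The 52739 transcripts (10053 new) were summed to 21665 genes. Counts were rounded and each pair of ages was compared with edgeR 4.0.16 (R 4.3.3) by the quasi-likelihood test (glmQLFit, glmQLFTest), after TMM scaling and the filterByExpr filter on low counts. P-values were adjusted by Benjamini and Hochberg over every gene tested in the pair. A gene passed at an adjusted p under 0.05, and was called when it also changed over 4-fold (absolute log2 fold change over 2). The authors' further FPKM threshold needs lengths and was not used. Reported adjusted p-values are from edgeR's quasi-likelihood test unless another is named. Expected counts split between transcripts of a gene are uncertain, so sums were tested. Exact permutation tests were two-sided. Pair ratios added 0.5 to each count. The code was tested on simulated data.

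The text names the 9 receptors, in each pathway list the called genes and the 3 with the highest mean CPM, and the 2 genes most like each receptor. Some genes that this rule names are not reported here. ADRA2A, STIM2, GNA11, PLCB3, P2RX4, PRKAR2B, PDE4D, PDE4B, CHRM2, CHRM4, CHRM5, CHAT, SLC5A7, SLC18A3 and NPY were added after their values were seen. Of the marker lists of other cell types, the thymus list and the neutrophil and myeloid list are given by their sums. The rest are not reported here. Of 186 listed genes 6 were not found. The members and lists were chosen with earlier results of these data known. The alternatives were DESeq2 1.42.0 size factors or its Wald test, upper-quartile or epithelial scaling, edgeR's exact test, no filter, all 9 libraries in 1 fit, a replicate block, single transcripts and leaving out each library. Matching symbols with their case and epithelial scaling without 1-month replicate 2 were added after seeing the data.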

Additional observations from a re-analysis of the deposited data

How the results depend on the processing

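Leaving out single libraries changed most counts. At 12 against 1 month the receptors that passed ranged from 0 to 4 (2 over all libraries) and those also over 4-fold from 0 to 1, with 4 passing without 1-month replicate 2 and 0 without any other library. At 24 against 1 month they ranged from 0 to 3 and from 0 to 2, with 0 passing without 1-month replicate 3 or 24-month replicates 2 or 3. At 24 against 12 months they ranged from 0 to 3, the 3 coming without 24-month replicate 1. For the pathway lists the ranges were 0 to 36, 1 to 24 and 0 to 27 genes that passed and 0 to 7, 1 to 7 and 0 to 1 also over 4-fold, with 0 at 12 against 1 month without any 12-month library and 1 at 24 against 1 month without 24-month replicate 2 or 3. Over all genes those that passed ranged from 0 to 6591 (2719 over all libraries), 309 to 4295 (2637) and 0 to 4614 (0). The sign turned for ADRA1A at 24 against 1 month (log2 fold change -0.58 to 0.35, CPM difference -2.51 to 0.692, positive without 1-month replicate 3 or 24-month replicate 3, and for the fold also without 1-month replicate 1), for TACR1 at 12 months (-2.07 to 0.43, CPM difference -1.73 to 0.380, positive without 1-month replicate 1, and for the fold also without 12-month replicate 2), for VIPR1 at 24 against 12 months (-0.036 to 0.58, CPM difference -0.797 to 13.9, negative without 24-month replicate 3), for P2RY2 (-0.41 to 0.54, CPM difference -1.50 to 1.27, positive without 12-month replicate 1, and for the fold also without 24-month replicate 1) and for ADRA1B (CPM difference -0.107 to 0.0992, negative without 24-month replicate 3 or 12-month replicate 2). The log2 ratio of ADRA1A to ADRA1B ranged from -0.091 to 2.54 at 24 against 1 month, negative without 24-month replicate 1, and from -1.53 to 1.10 at 24 against 12 months, positive without 24-month replicates 2 or 3 or 12-month replicate 2. None of the differences whose sign turned had passed. Where 1 age kept 2 libraries, the spread was shared with the other age.

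Scaling to the epithelial list moved values most, with the median gene at -1.90 and -2.16 and 10725 and 10207 genes passing. Receptors that passed then numbered 1 and 4, with 4 over 4-fold at 24 months, and pathway genes 39 and 35, with 27 and 29 over 4-fold. With 1-month replicate 2 also dropped, 4 and 4 receptors passed (2 and 3 over 4-fold), as did 43 and 35 pathway genes (20 and 23 over 4-fold) and 12043 and 10627 of all genes. Signs turned at 12 and 24 months for VIPR1 (-0.35 and -0.32, or -0.49 and -0.45 with the library dropped) and P2RY2 (-0.29 and -0.65, or -0.74 and -1.10), at 24 months for CHRM3 (-0.24, or -0.34 at 12 and -0.82 at 24 months with the library dropped) and at 12 months for ADRA1A (-1.17, or -1.56). The CPM differences that turned were -9.54 for CHRM3 at 24 months, -5.83 for ADRA1A at 12 months, -6.06 and -5.48 for VIPR1, -0.685 and -1.34 for P2RY2, and -0.0238 for ADRA1B at 24 against 12 months. With total counts in place of TMM, ADRA1A at 12 months was at -0.153 and ADRA1B at 24 against 12 months at -0.00361. With RefSeq transcripts alone the 24 against 12 month differences were 0.659 for CHRM3, -0.111 for VIPR2 and 0.125 for TACR1, that of TACR1 at 24 against 1 month was 0.0622, and the log2 ratio of VIPR1 to VIPR2 at 24 against 12 months was 1.97. With 0.1 in place of 0.5 added to each count, ADRA1A to ADRA1B at 24 against 12 months was at 0.55.

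Other choices moved counts. At 12 against 1 month 1 receptor passed with DESeq2's size factors or with symbols matched by case, and 0 with upper-quartile scaling or with transcripts not summed, all with 0 over 4-fold. By the Wald test, the exact test or all 9 libraries in 1 fit, 2 receptors were over 4-fold at each of 12 and 24 months. At 24 months 1 passed with upper-quartile scaling, and 0 passed and 0 were over 4-fold with transcripts not summed. Of the pathway genes 29 passed by the Wald test at 12 months, 12 of them over 4-fold. Over all genes the Wald test passed 4799, 4113 and 24, the exact test 4162 at 12 months and 24 between 24 and 12 months, all 9 libraries in 1 fit 4400 at 24 months, single transcripts 902 and 453, and no filter 2 between 24 and 12 months. The cause of these changes was not tested.

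Replicate numbers name different goats and did not pair the samples: deviations of same-numbered libraries correlated from -0.121 to -0.108 at 12 against 1 month, from -0.234 to 0.420 at 24 against 1 month and from -0.122 to 0.00304 at 24 against 12 months. With the replicate block, 0 receptors passed at 12 against 1 month, 0 over 4-fold, and 4 pathway genes, 4 over 4-fold, with 925 of all genes there and 7 at 24 against 12 months. At 24 against 1 month 2 receptors passed as before, but ADRB1 (adjusted p = 0.0473) took the place of CHRM1 (adjusted p = 0.0550) beside VIPR1. ADRA1A at 24 against 1 month was then at 0.16 and P2RY2 at 24 against 12 months at 0.11.

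Depth limits ADRA1B, VIPR2 and TACR1, which were at or near 3 counts in some libraries, so that their folds and ratios are imprecise, and 3 goats an age limit every test.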
